A study of Mus with 16 samples.

Results

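The choroid plexus genes described here are 10 rows of a gene count table of mouse forebrain, out of 54219 genes in that table. They were chosen by Ensembl identifier from textbook knowledge of the choroid plexus and with earlier results of these data in view, since the fall of *Ttr* and *Aqp1* in mutant males had been seen. The levels of *Ttr* and *Aqp1* in males are therefore a description, and the comparison of females, which uses other animals, carries the tests. The question was whether these genes were high in the same animals or followed the genotype. The genes are *Ttr* (ENSMUSG00000061808), *Aqp1* (ENSMUSG00000004655), *Kcnj13* (ENSMUSG00000079436), *Folr1* (ENSMUSG00000001827), *Clic6* (ENSMUSG00000022949), *Kl* (ENSMUSG00000058488), *Enpp2* (ENSMUSG00000022425), *Otx2* (ENSMUSG00000021848), *Prlr* (ENSMUSG00000005268), and *Sostdc1* (ENSMUSG00000036169).

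The choroid plexus is a folded epithelium in the ventricles of the brain, and the part in the lateral ventricle lies directly beside the hippocampus. Its epithelial cells make the cerebrospinal fluid by moving ions and water out of the blood, and they release carrier proteins, hormones, and enzymes into that fluid. They take up folate and plasma hormones for the brain. Their identity depends on the homeobox factor OTX2, and their best known product is transthyretin.

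Poly(A) RNA was sequenced from the forebrain (cortex and hippocampus, dissected together) of 16 mice at P6, with 4 animals in each of 4 groups. The groups were WT males (2D, 5D, 7D, 1E), hemizygous *Kdm5c*-KO males (4D, 6D, 2E, 3E), WT females (1D, 3D, 4E, 5E), and heterozygous *Kdm5c*-HET females (9D, 6E, 8E, 9E), each animal being named by the number and letter in its sample label. *Kdm5c* is an X-linked gene for an H3K4 demethylase, and the mutant allele is a germline loss of exons made with Cre, kept on a mixed C57BL/6J and 129S1/SvImJ background. The labels do not say what the letter D or E stands for, and it is used below to set animals with the same letter side by side and as a covariate in an alternative fit.

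Between 21513783 and 30063352 reads were counted per animal. Levels are given as counts or as CPM (counts of a gene scaled to a common library size) after TMM normalization, which scales each library by a factor estimated from all genes. Of the 10 genes, 9 passed the filter on low counts that left 17866 genes for testing, and *Kcnj13* did not. The labelled tissue was present in every animal by *Emx1*, a transcription factor of the dorsal forebrain (27.4 to 41.0 CPM). How much choroid plexus was dissected with each forebrain is not given in the sources used here, and in whole tissue fewer cells of a type and less RNA per cell cannot be told apart.

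*Ttr* encodes transthyretin, the thyroxine and retinol carrier that the choroid plexus epithelium releases into the cerebrospinal fluid. Its gene lies at chr18:20664209-20674326 in RefSeq on GRCm38.p6 (mm10), where the predicted gene *Gm16090* overlaps it. Among WT males, 2D had 5380 counts of *Ttr*, 5D had 5849, 7D had 125, and 1E had 6. In *Kdm5c*-KO males, it had 54 counts in 4D, 40 in 6D, 41 in 2E, and 60 in 3E. The *Kdm5c*-KO males thus lay together, inside the range of the WT males, which split into a pair of high animals and a pair of low ones. In WT females, *Ttr* had 5389 counts in 1D, 5577 in 3D, 79 in 4E, and 97 in 5E. In *Kdm5c*-HET females, it had 17 counts in 9D, 90 in 6E, 2131 in 8E, and 1361 in 9E. Both groups of females also held high and low animals and overlapped.

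As normalized levels, *Ttr* was 102 ± 115 CPM in WT males, 1.89 ± 0.314 CPM in *Kdm5c*-KO males, 94.8 ± 105 CPM in WT females, and 36.6 ± 41.3 CPM in *Kdm5c*-HET females (mean ± SD, n = 4 animals each). In every group but the *Kdm5c*-KO males the SD exceeded the mean. The 4 animals with the highest *Ttr*, WT males 2D and 5D and WT females 1D and 3D, lay between 181 and 202 CPM. Then came *Kdm5c*-HET females 8E (84.5 CPM) and 9E (57.7 CPM), and the other 10 animals had 0.277 to 5.60 CPM. The 4 highest animals were thus WT, of both sexes, and had the letter D, and their total counts ranked 1, 2, 3, and 5 among the 16 libraries. The part of depth in these levels was not tested, and values within each letter and a fit with the letter are given below.

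**Figure D1:**
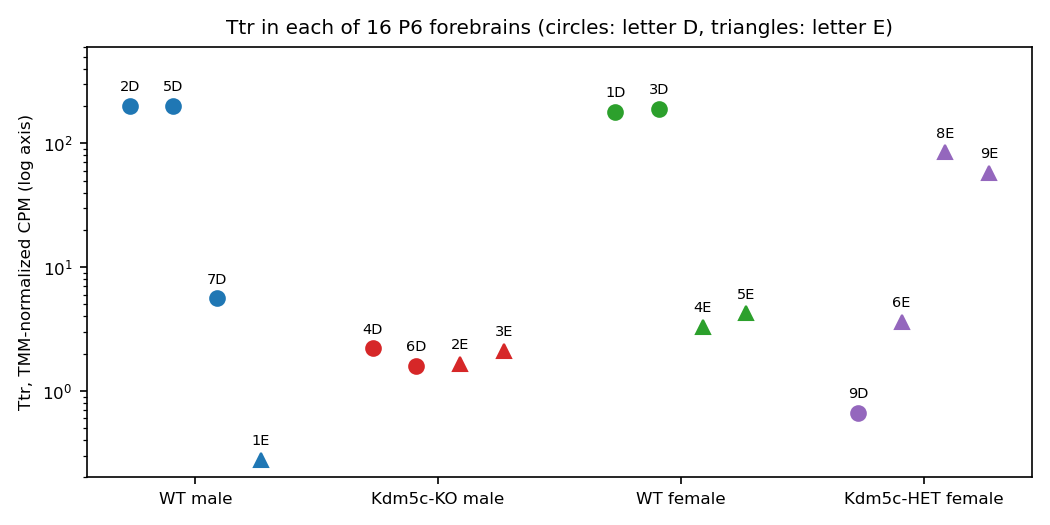
Level of *Ttr* in each of the 16 forebrains, as TMM-normalized CPM on a log axis, by group on the horizontal axis; circles are animals with the letter D and triangles those with the letter E. WT males 2D and 5D and WT females 1D and 3D sit between 181 and 202 CPM, *Kdm5c*-HET females 8E and 9E at 84.5 and 57.7 CPM, and the other 10 animals at or under 5.60 CPM.

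Set side by side within a letter, *Ttr* did not follow the genotype in a single direction. Among males with the letter D, it was 201, 202, and 5.60 CPM in the WT animals and 2.21 and 1.59 CPM in the *Kdm5c*-KO animals. Among males with the letter E, WT 1E had 0.277 CPM and the *Kdm5c*-KO animals 2E and 3E had 1.66 and 2.12 CPM. Among females with the letter D, the WT animals had 181 and 191 CPM and *Kdm5c*-HET 9D had 0.669 CPM. Among females with the letter E, the WT animals had 3.29 and 4.25 CPM and the *Kdm5c*-HET animals 6E, 8E, and 9E had 3.62, 84.5, and 57.7 CPM. WT animals were therefore the higher ones under the letter D in both sexes. Under the letter E, the mutant males were both above the WT male, and 2 of 3 mutant females were above both WT females.

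Water and ion transport was represented by *Aqp1*, *Kcnj13*, and *Clic6*. *Aqp1*, the water channel of the apical membrane of the epithelium, lies at chr6:55336299-55348555. It had 93, 88, 17, and 26 counts in WT males 2D, 5D, 7D, and 1E and 15, 16, 8, and 16 counts in *Kdm5c*-KO males 4D, 6D, 2E, and 3E. All 4 *Kdm5c*-KO males were below all 4 WT males. How many of all genes separate the males likewise was not counted, so nothing is read from this. In females, *Aqp1* had 93, 105, 17, and 16 counts in WT 1D, 3D, 4E, and 5E and 67, 23, 52, and 24 counts in *Kdm5c*-HET 9D, 6E, 8E, and 9E. Each *Kdm5c*-HET female thus lay between the 2 high and the 2 low WT females. The same 4 animals were highest for *Aqp1* as for *Ttr*, with 3.03 to 3.60 CPM, followed by *Kdm5c*-HET 9D with 2.64 CPM.

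*Clic6*, an intracellular chloride channel protein of secretory epithelia, lies at chr16:92498147-92541241. It was 3.10, 4.27, 1.39, and 1.02 CPM in WT males and 1.56, 0.996, 1.01, and 1.66 CPM in *Kdm5c*-KO males, in the order of animals used for *Aqp1*. It was 3.56, 4.76, 1.04, and 0.92 CPM in WT females and 1.26, 1.73, 2.85, and 2.75 CPM in *Kdm5c*-HET females. Its 6 highest animals were the 6 highest for *Ttr*, *Kdm5c*-HET 8E and 9E being the fifth and the sixth for both genes. Among females with the letter E, all 3 *Kdm5c*-HET animals were above both WT animals, and under the letter D *Kdm5c*-HET 9D was below both.

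*Kcnj13*, the inward rectifying potassium channel Kir7.1 of the apical membrane, lies at chr1:87384577-87394729 and overlaps *Gigyf2*, so that the strand setting of the counting, which is not given in the sources used here, bears on its counts. WT males 2D and 5D had 6 and 10 counts, and WT females 1D and 3D had 10 and 22. It also had 9 counts in *Kdm5c*-HET 9D and 6 in *Kdm5c*-HET 9E, and between 0 and 4 in the other 10 animals. It had no count in *Kdm5c*-HET 8E, where the exact 95% Poisson interval of 0 counts reaches 3.69, although that animal was the fifth highest for *Ttr*. These counts are too low for a difference between groups to be read.

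*Folr1*, the folate receptor alpha that carries folate across the epithelium, lies at chr7:101858331-101870788 and is overlapped by *Gm35597*. It had 39, 40, 5, and 6 counts in WT males and 13, 10, 26, and 17 counts in *Kdm5c*-KO males. It had 50, 41, 9, and 18 counts in WT females and 12, 4, 18, and 24 counts in *Kdm5c*-HET females. The same 4 WT animals were highest, with 1.38 to 1.68 CPM, and the next was *Kdm5c*-KO 2E with 1.05 CPM. The low WT males 7D and 1E lay below all 4 *Kdm5c*-KO males for this gene, unlike for *Aqp1*.

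Secreted and membrane signaling proteins were represented by *Enpp2*, *Kl*, *Prlr*, and *Sostdc1*. *Enpp2* encodes autotaxin, a secreted enzyme that makes lysophosphatidic acid and that oligodendrocytes express too, and lies at chr15:54838901-54952789. It was 60.2, 52.4, 45.4, and 45.3 CPM in WT males and 42.6, 43.8, 33.2, and 29.0 CPM in *Kdm5c*-KO males. These groups did not overlap, but the share of all genes that separate the males likewise was not counted. *Enpp2* was 56.0, 58.9, 38.9, and 33.4 CPM in WT females and 51.0, 38.3, 39.3, and 38.7 CPM in *Kdm5c*-HET females. The 4 highest animals were again those of *Ttr*, but the whole range over 16 animals was only 29.0 to 60.2 CPM. *Kdm5c*-HET 8E and 9E, where *Ttr* was high, and 6E, where it was low, had much the same *Enpp2*.

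*Kl* encodes klotho, a co-receptor for FGF23 whose ectodomain is shed into the fluid, and lies at chr5:150952607-150993817. Its highest level was in WT female 1D (4.56 CPM), followed by *Kdm5c*-KO 3E (4.34 CPM). The group means were 2.82 ± 0.645 CPM in WT males, 3.26 ± 0.782 CPM in *Kdm5c*-KO males, 3.29 ± 1.14 CPM in WT females, and 2.71 ± 0.753 CPM in *Kdm5c*-HET females (SD, n = 4 each). *Kl* shared 3 of its 4 highest animals with *Ttr*. *Sostdc1*, a secreted antagonist of BMP and WNT signaling at chr12:36314169-36318452, also shared 3 of 4, and its highest animal was *Kdm5c*-KO 2E (5.74 CPM). Its levels spanned 2.75 to 5.74 CPM over all animals, with *Kdm5c*-HET females within 3.61 to 3.98 CPM.

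*Prlr*, the prolactin receptor, which choroid plexus epithelium and hypothalamic neurons express, lies at chr15:10177238-10349190 and is overlapped by *Gm41268*. It was 1.87, 1.48, 1.79, and 1.57 CPM in WT males and 2.37, 1.83, 2.91, and 1.76 CPM in *Kdm5c*-KO males. It was 1.48, 1.10, 1.63, and 2.15 CPM in WT females and 2.44, 2.57, 1.98, and 2.33 CPM in *Kdm5c*-HET females. None of its 4 highest animals was among the 4 highest for *Ttr*, and its lowest animal was WT female 3D, the highest for *Aqp1*, *Clic6*, and *Kcnj13*.

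*Otx2*, the homeobox transcription factor of the choroid plexus epithelium, lies at chr14:48656781-48667644. Among WT males, 2D had 28 counts, 5D had 30, 7D had 0, and 1E had 3. In *Kdm5c*-KO males it had 0, 1, 1, and 7 counts. In WT females it had 29 and 28 counts in 1D and 3D and 3 and 4 in 4E and 5E, and in *Kdm5c*-HET females 0 in 9D, 6 in 6E, 63 in 8E, and 9 in 9E. Its highest animal was thus a *Kdm5c*-HET female, 8E (95% interval of the count 48.4 to 80.6, counting error only), above all 4 animals that were highest for *Ttr*. The 4 animals highest for *Ttr* differed little from one another in *Otx2*, at 0.959 to 1.05 CPM.

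**Figure D2:**
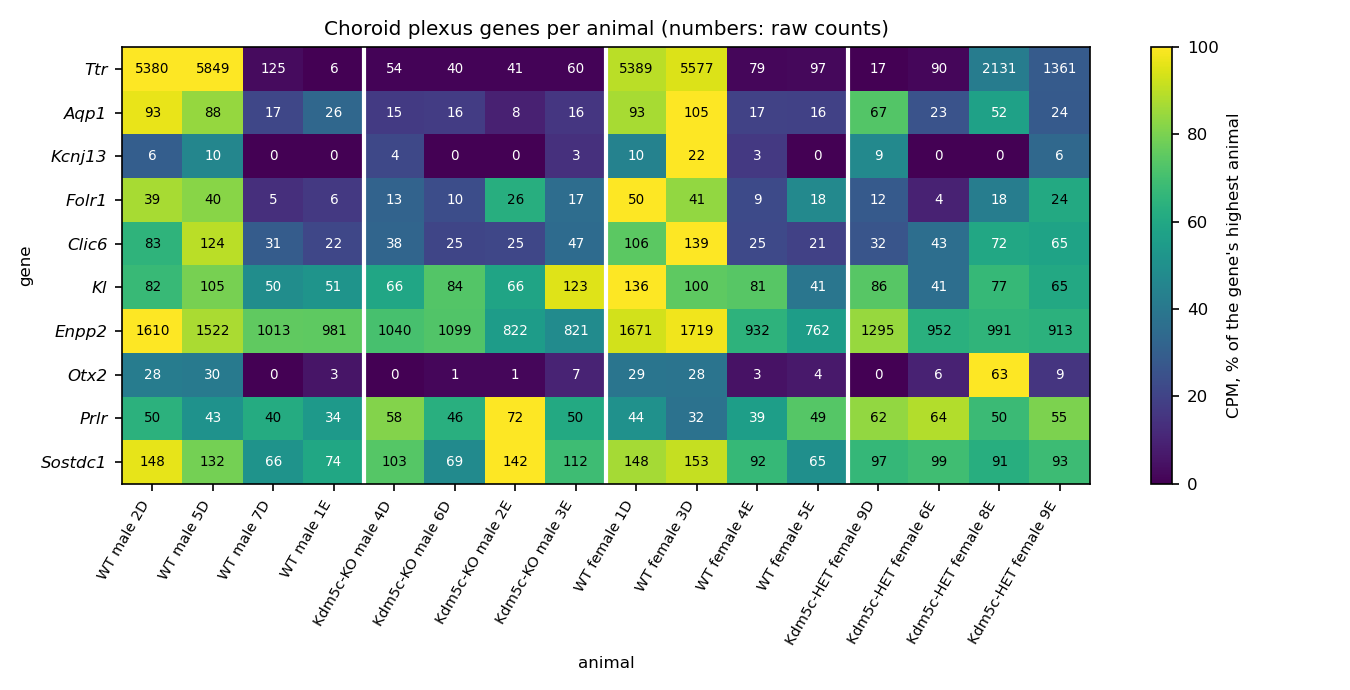
All 10 genes (rows) in all 16 animals (columns, by group); the color is the CPM as a percent of the gene's highest animal and the printed number is the raw count. *Ttr*, *Aqp1*, *Folr1*, *Clic6*, and *Enpp2* are brightest in WT 2D, 5D, 1D, and 3D, *Otx2* in *Kdm5c*-HET 8E, and *Prlr* and *Sostdc1* in *Kdm5c*-KO 2E.

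The order of the animals was then compared between the genes. *Aqp1*, *Folr1*, *Clic6*, and *Enpp2*, which are 4 of the 9 genes besides *Ttr*, had the same 4 highest animals as *Ttr*, by CPM and by raw counts. Over all genes tested, 0.364% (65 of 17866) had these 4 animals highest. *Kcnj13*, *Kl*, *Otx2*, and *Sostdc1* shared 3 of the 4, and *Prlr* shared 0. The genes were chosen with some of these levels known, so these counts are a description and no test was made of them. Summed without *Ttr* and *Enpp2*, whose counts are the largest, the other 8 genes came to 19.7 to 21.2 CPM in these 4 animals. The sum was 16.8 CPM in *Kdm5c*-HET 8E, 14.5 CPM in 9E, 14.4 CPM in 9D, and 13.7 CPM in *Kdm5c*-KO 2E, and 9.37 to 13.2 CPM in the other 8 animals.

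The genes did not keep a fixed proportion to *Ttr* outside the highest animals. For each 1000 counts of *Ttr*, *Aqp1* had 15.0 to 18.8 counts in the 4 highest animals, 24.4 in *Kdm5c*-HET 8E, and 17.6 in 9E. *Otx2* had 5.02 to 5.38 counts per 1000 of *Ttr* in the 4 highest animals, 6.61 in *Kdm5c*-HET 9E, and 29.6 in 8E. *Clic6* had 15.4 to 24.9 in the 4 highest animals, 33.8 in 8E, and 47.8 in 9E. *Kdm5c*-HET 9D had 67 counts of *Aqp1* (95% interval 51.9 to 85.1) and 9 of *Kcnj13* beside 17 of *Ttr* (9.90 to 27.2) and 0 of *Otx2*, or 3941 counts of *Aqp1* per 1000 of *Ttr*. WT male 1E, with 26 counts of *Aqp1* beside 6 of *Ttr*, had 4333. High *Aqp1* therefore came with high *Ttr* in 4 WT animals and in *Kdm5c*-HET 8E, and without it in *Kdm5c*-HET 9D.

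**Figure D3:**
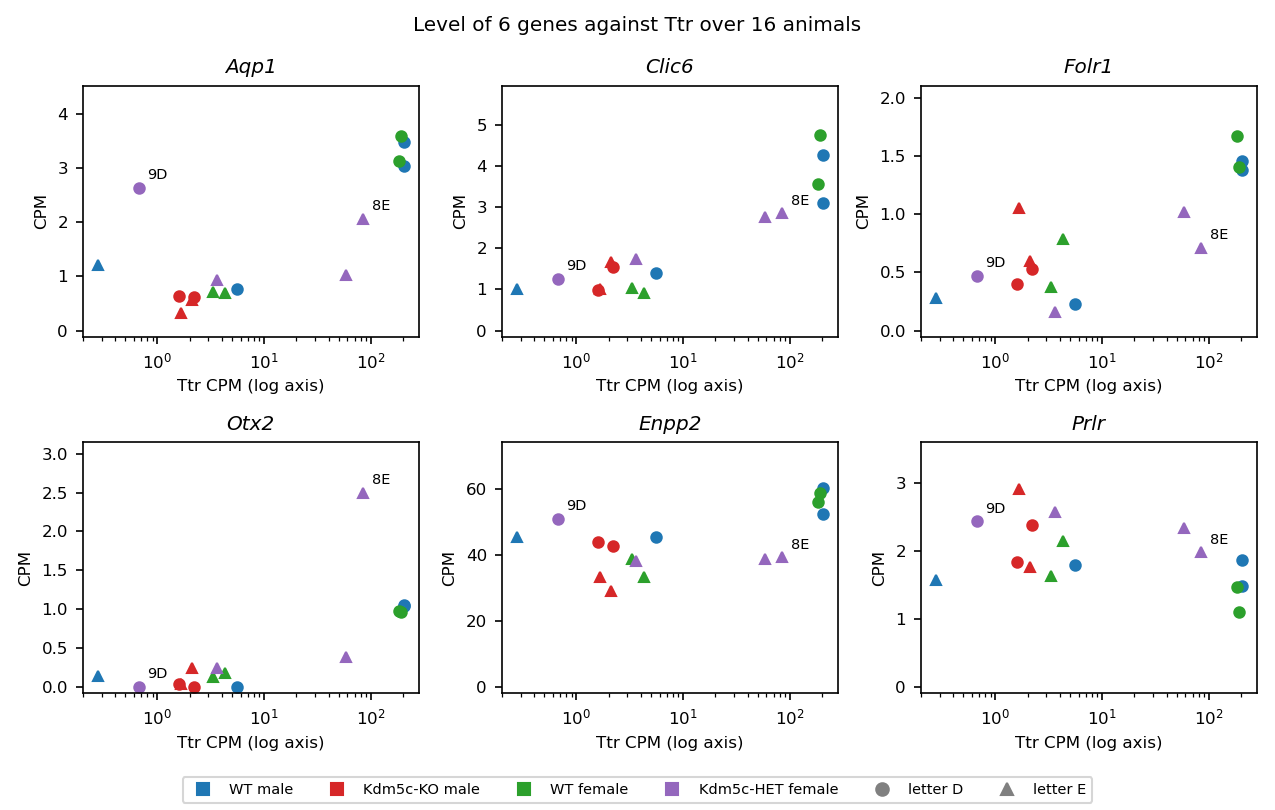
CPM of *Aqp1*, *Clic6*, *Folr1*, *Otx2*, *Enpp2*, and *Prlr* against CPM of *Ttr* (log axis), 1 point per animal, colored by group, with circles for the letter D and triangles for E. *Aqp1* in *Kdm5c*-HET 9D (2.64 CPM at 0.669 CPM of *Ttr*) and *Otx2* in *Kdm5c*-HET 8E (2.498 CPM) lie off the course of the other animals.

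*Kdm5c*-HET females were compared with WT females with the quasi-likelihood test of edgeR, its p-values adjusted by Benjamini-Hochberg over all 17866 genes. Of the 9 choroid plexus genes tested, 0 passed an adjusted p-value (q) of 0.1, where 0.509% of all genes did (91 genes). At an unadjusted p-value under 0.05 there was 1, *Prlr*, where 6.49% of all genes were. DESeq2, run on the whole count table without that filter, also called 0 of them and had 1 at an unadjusted p-value under 0.05. It called 136 genes, and 1246 were at an unadjusted p-value under 0.05. Set against the 17866 genes of the edgeR fit, not those DESeq2 tested, these are 0.761% and 6.97%. *Ttr* had a log2 fold change of -1.39 (standard error 1.17, q = 0.966), with its groups overlapping, and this was -2.23 without *Kdm5c*-HET 8E and -0.80 without WT female 3D. *Folr1* had -0.87 (0.567, q = 0.933), *Aqp1* -0.32 (0.502, q = 0.991), and *Clic6* -0.29 (0.46, q = 0.991) in the same edgeR fit. *Otx2* had 0.43 (0.91, q = 0.993), which rests on *Kdm5c*-HET 8E and was -1.48 without it. *Prlr* had 0.57 (0.212, q = 0.562), with 3 of 4 *Kdm5c*-HET females above all WT females. In all, 7 of the 9 fold changes were negative and their median was -0.29, beside a median near 0 over all genes (-0.000803). With the letter as a covariate, 4 of the 9 were negative and their median was 0.091, so that neither the tally nor the median kept its direction. Standard errors of 0.46 to 1.17 for *Ttr*, *Aqp1*, *Folr1*, *Clic6*, and *Otx2* limit what these 8 animals can resolve for them.

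Without a filter on low counts, edgeR's test called *Ttr* in females (q = 0.0354) with nearly the same fold change of -1.39, where 0.645% of all genes were called. With the letter of the label as a covariate, the fold change of *Ttr* in females was 1.21 (q = 0.89), so that its direction turned.

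Between *Kdm5c*-KO and WT males, the contrast that was in view when the genes were chosen, edgeR called 2 of the 9 genes at q of 0.1, *Ttr* and *Aqp1*, both lower in *Kdm5c*-KO males, where 5.24% of all genes were called (937 genes). The log2 fold change was -5.76 for *Ttr* (standard error 1.66), and -2.00 for *Aqp1* (0.574). For *Otx2*, which was not called (q = 0.295), it was -2.68 (1.26), and it was -4.20 without *Kdm5c*-KO 3E and -2.20 without WT male 5D. It was -0.93 for *Clic6*, -0.46 for *Enpp2*, -0.42 for *Folr1*, 0.01 for *Sostdc1*, 0.20 for *Kl*, and 0.40 for *Prlr*. With the letter as a covariate, 3 of the 9 genes were called, where 8.22% of all genes were, the third being *Enpp2* at -0.36. Leaving out WT male 2D, WT male 5D, *Kdm5c*-KO 2E, or *Kdm5c*-KO 3E left 0 of the genes called. *Ttr* also lost its call without *Kdm5c*-KO 4D (q = 0.116) and without *Kdm5c*-KO 6D (q = 0.105), and without 6D *Enpp2* was called in its place (q = 0.0903). The fold change of *Ttr* stayed between -6.17 and -5.19 whichever animal was left out. WT males 7D and 1E, at 125 and 6 counts, lay above and below all 4 *Kdm5c*-KO males for *Ttr*.

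Some markers of other tissues and cells differed between the same males. In the same fit, the log2 fold change in *Kdm5c*-KO males was -0.59 for *Hba-a1* (q = 0.00131) and -0.67 for *Hba-a2* (q = 0.00904), both alpha globins whose near-identical copies leave the counts uncertain, and -0.57 for *Hbb-bt*, a beta globin (q = 0.112). It was 0.72 for *Rlbp1*, a retinaldehyde binding protein also found in glia (q = 1.12e-05), which was called in *Kdm5c*-HET females too (0.40, q = 0.0311). Among further choroid plexus genes, it was -1.25 for the bicarbonate transporter *Slc4a5* (q = 0.0972) and -0.24 for *Igfbp2* (q = 0.0395), but 0.41 for *Ace* (q = 0.00622) and 0.36 for *Spint2* (q = 0.0107). These genes have a name here because the study listed them as changed in these animals. Their part in the levels of *Ttr* and *Aqp1* was not tested.

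The difference between the male and the female fold change was fitted in the same edgeR model, a contrast added after the data had been seen. It was -4.37 for *Ttr* (standard error 2.08, q = 0.777) and -1.68 for *Aqp1* (0.767, q = 0.777), and 0 of the 9 genes passed, where 0.0392% of all genes did (7 genes). At an unadjusted p-value under 0.05 there were 2, *Ttr* and *Aqp1*, where 6.37% of all genes were, but this contrast reuses the male levels known when the genes were chosen, so nothing is read from that count.

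**Figure D4:**
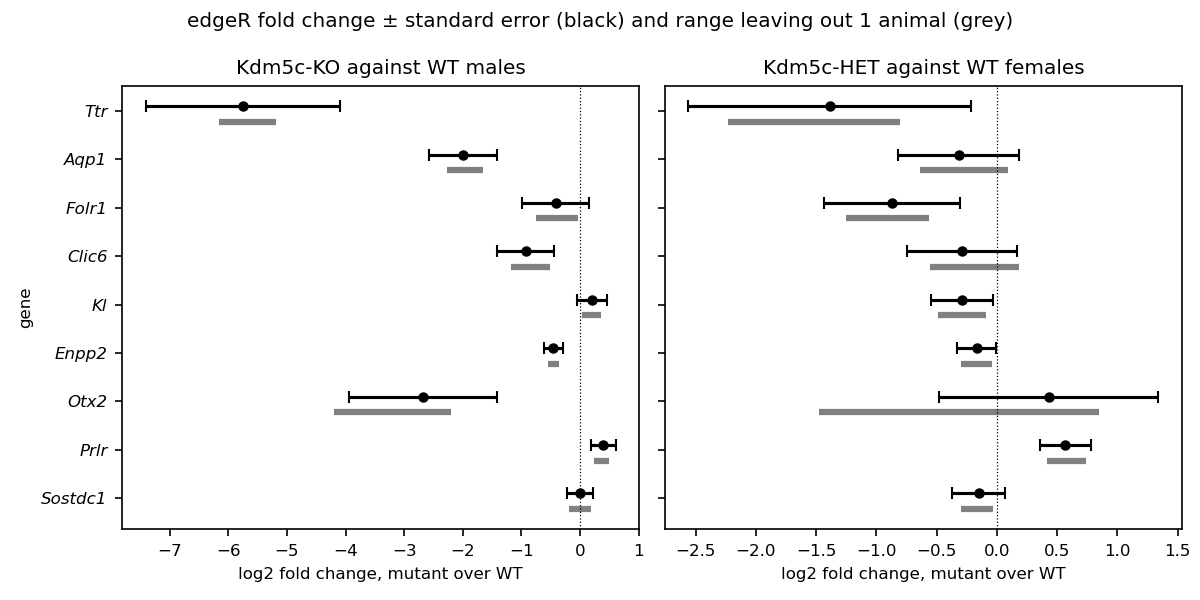
Log2 fold change of mutant over WT in males (left) and females (right) for the 9 genes tested; black points and bars are edgeR estimates ± standard error, and grey bars are the range of estimates when each of the 16 animals is left out in turn. In females the grey bars of *Aqp1*, *Clic6*, and *Otx2* cross 0; the axes of the panels differ.

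Other genes of these animals were set beside the choroid plexus genes where a name could be matched. Of 26 further choroid plexus genes, only 4 had a name in the tables used here, *Slc4a5*, *Ace*, *Igfbp2*, and *Spint2*, which is too few to describe that list. These names come from the study's table of genes that changed in these same animals, so that they are not independent. *Slc4a5*, which the epithelium carries on its apical membrane, was 2.17 and 2.79 CPM in WT males 2D and 5D and 1.64 and 1.27 CPM in WT females 1D and 3D. In the other 12 animals it was 0.558 to 1.29 CPM, the highest of them being WT female 4E. *Ace*, the angiotensin-converting enzyme, was 12.9 to 15.1 CPM in the 4 animals highest for *Ttr* and 12.0 to 19.6 CPM in the others, which overlap. *Igfbp2* (66.1 to 81.3 and 58.7 to 77.4 CPM) and *Spint2* (15.4 to 19.2 and 15.0 to 26.6 CPM) overlapped likewise.

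No gene of the lists for ependyma (10 genes) and meninges (11 genes) had a name, so these neighbors of the choroid plexus are not analysed here. Of 5 blood genes, 3 were matched, and *Hba-a1* was 38.7 to 56.9 CPM in the 4 animals highest for *Ttr* and 27.5 to 56.3 CPM in the others. *Hba-a2* (4.90 to 7.51 and 3.27 to 8.31 CPM) and *Hbb-bt* (2.58 to 5.68 and 2.63 to 5.78 CPM) overlapped as well. Of 8 genes of pigment epithelium and liver, other sources of transthyretin, 1 was matched, *Rlbp1*, with 33.0 to 38.6 CPM in the 4 animals and 35.2 to 68.3 CPM in the others. Of 17 genes of thalamus, striatum, and hypothalamus, 1 was matched, *Rora*, a nuclear receptor strong in thalamus, which was 31.7 to 35.0 CPM in the 4 animals and 22.3 to 30.7 CPM in the others, without overlap. Of 10 genes of cortex and hippocampus, *Emx1* is given here, with 29.9 to 41.0 CPM in the 4 animals and 27.4 to 35.2 CPM in the others, which overlap. The part of neighboring tissue in the levels of the choroid plexus genes was not tested.

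The genes whose level was most like that of *Ttr* were ranked by Pearson's r of log2 CPM (prior count 2) over the 16 animals, as a description. The animals were not spread evenly in *Ttr*, and r within the high or the low animals was not computed. Among the chosen genes, *Clic6* was the most like *Ttr* of all genes tested (r = 0.92), followed by *Otx2* (0.84), *Folr1* (0.74), and *Aqp1* (0.69). *Enpp2* (0.52), *Sostdc1* (0.49), and *Kl* (0.35) were less like it, and *Prlr* ran the other way (-0.45). The first rank of *Clic6* holds for r only: by Spearman's rho it had 0.80, and an unnamed gene had 0.85. The 10 most similar genes outside the chosen ones had r of 0.893 to 0.769, and 0 of them had a name in the tables used here. Since the fixed lists were matched by name only, whether these 10 include further choroid plexus genes was not determined. By Spearman's rho, 5 of these 10 stayed among the 10 most similar. The most similar genes with a name, chosen after their values were seen, were *Slc4a5* (r = 0.75), *Tmem255b* (0.74), and *Aatk* (0.72).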

How the data were processed

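The authors mapped paired-end reads of directional poly(A) libraries to mm10 with STAR 2.5.3a, removed duplicates, and counted uniquely mapped reads per gene with featureCounts (Subread 1.5.0). They deposited these whole-number counts without normalization for 54219 Ensembl genes. Each column was matched to an animal by its label. The 24 pairs of animals within groups differed by more than sampling noise (chi-square per gene 2.89 to 15.2), and each animal was 1 replicate.

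The analysis used edgeR 4.0.16 in R 4.3.3 (filterByExpr, TMM, glmQLFit and glmQLFTest, 1 mean per group over 16 animals, Benjamini-Hochberg adjustment over 17866 genes, threshold 0.1). The code was tested on simulated data. Count intervals are exact Poisson at 95% and cover counting error only. The alternatives were DESeq2 1.42.0, its size factors, other filters, the 8 animals of a sex, the letter as a covariate, a threshold of 0.05, and leaving out each animal. The difference between the sexes was chosen as an extra contrast once the data had been seen.

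The genes and lists were chosen with earlier results of these data known. The genes named are the 10 chosen, up to 4 per list by mean CPM, and any with a name among the 10 most like *Ttr*, of which there were 0. *Tmem255b*, *Aatk*, and the genes of the closing observations were picked after their values were seen. Names came from the study's tables (1015 genes, names only), so that only 11 of the 87 listed genes were matched, a check of those lists is void, and unnamed genes are counted only. Coordinates were looked up by symbol in RefSeq on GRCm38.p6 (mm10). Promoter sequences were not analysed here.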

Additional observations from a re-analysis of the deposited data

Results flagged for a closer look

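In each group of 4 animals, the gap of the highest or lowest animal to its nearest neighbor was divided by the range of the group for each of the 10 choroid plexus genes. The ratio exceeded Dixon's 95% critical value in 3 of 40 sets of animals, where independent normal values would give about 1 in 20. Some genes had counts near 0 and all genes share the same animals, so that rate need not hold here. The 3 sets are therefore not read as an excess. *Enpp2* was 51.0 CPM in *Kdm5c*-HET female 9D, and the nearest animal of its group had 39.3 CPM. *Otx2* was 2.498 CPM in *Kdm5c*-HET female 8E, and the nearest had 0.381 CPM. *Otx2* was 0.247 CPM in *Kdm5c*-KO male 3E, where the nearest had 0.0404 CPM, but this difference is 7 counts against 1. *Ttr* was not among these sets, its high animals lying in pairs within 3 groups.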

How the results depend on the processing

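In females, 0 of the choroid plexus genes passed in the main fit and whichever animal was left out (0 to 0), and 1, *Ttr*, passed without a filter on low counts. In males, where 2 passed, 5 did without a filter (1279 of all genes), 3 with the letter as a covariate, 0 at a threshold of 0.05, 0 with at least 10 counts in every animal (838 of all genes), a filter that removes *Ttr* and *Aqp1*, and 0 to 3 when an animal was left out. The count was 0 without WT male 2D, WT male 5D, *Kdm5c*-KO 2E, or *Kdm5c*-KO 3E and 1 without *Kdm5c*-KO 4D. Over all genes, the calls in females rose from 91 to 228 without a filter and 157 with the letter as a covariate, and were 50 to 89 when an animal was left out, with 50 without WT female 3D, 59 without *Kdm5c*-HET 6E, and 54 without *Kdm5c*-HET 8E. In males the 937 became 1468 with the letter, 583 at a threshold of 0.05, and 555 to 1129 when an animal was left out, with 571 without WT male 2D, 555 without WT male 5D, 561 without *Kdm5c*-KO 2E, and 593 without *Kdm5c*-KO 3E. With the letter as a covariate, the female log2 fold changes turned to 1.21 for *Ttr*, 0.18 for *Aqp1*, and 0.091 for *Clic6*. With an animal left out, they ranged from -0.63 to 0.10 for *Aqp1* and -0.56 to 0.18 for *Clic6*, both turning without WT female 3D, and from -1.48 to 0.85 for *Otx2*, which turned without *Kdm5c*-HET 8E. *Sostdc1* in males ranged from -0.19 to 0.18. The causes of these changes were not tested. *Kcnj13* and *Otx2* had 0 counts in several animals. The label of each animal, number and letter together, is its own, so the animals were not paired by it, and only the letter was fitted.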

Other observations

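Genes with other functions also had WT males 2D and 5D and WT females 1D and 3D as their 4 highest animals. Of the 65 genes with this order, which include 5 choroid plexus genes, 15 others had a name in the tables used here, and those names come from the study's list of genes changed in these animals. *Vip*, a neuropeptide of cortical interneurons, was 7.74 to 8.48 CPM in the 4 animals and 3.70 to 7.34 CPM in the other 12, and its receptor *Vipr1* was 6.43 to 7.40 CPM against 3.64 to 6.19 CPM. *Slc17a8*, the vesicular glutamate transporter VGLUT3, was 17.5 to 20.6 CPM against 10.5 to 17.1 CPM. *Cacna1i*, a T-type calcium channel, was 169 to 175 CPM against 110 to 165 CPM. *Cadps2*, which primes dense core vesicles, was 84.7 to 88.9 CPM against 60.4 to 81.1 CPM. These ranges lie close together, whereas those of *Ttr* were 181 to 202 CPM against 0.277 to 84.5 CPM. Conversely, 36 genes (0.202%) had these animals as their 4 lowest. The names *Vip*, *Vipr1*, *Slc17a8*, *Cacna1i*, and *Cadps2* were picked after their values were seen, and these values were not tested.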
